A study of Saccharomyces cerevisiae with 7 samples.

Results

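Transcripts of the yeast sirtuins and of the proteins that carry transcriptional silencing were followed across 7 genotypes. The genes were chosen by name, as *SIR1*, *SIR2*, *SIR3*, *SIR4*, *HST1*, *HST2*, *HST3*, *HST4* and *RAP1*. All 9 were present among the 5110 genes counted in each library.

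Silencing in budding yeast keeps the spare mating-type genes at *HML* and *HMR*, the chromosome ends and parts of the ribosomal DNA (rDNA) out of use. Sir2, a histone deacetylase that consumes NAD, acts with the structural proteins Sir3 and Sir4, which bind deacetylated nucleosomes, while Sir1 helps to bring the complex to the silencers of the mating-type loci. Rap1, an essential DNA-binding protein, recruits Sir3 and Sir4 at silencers and telomeres and also activates ribosomal protein and glycolytic genes. Hst1, the closest relative of Sir2, represses middle sporulation and NAD synthesis genes together with Sum1 and Rfm1. Hst2 is a mainly cytoplasmic sirtuin, and Hst3 and Hst4 remove the acetyl group that newly made histone H3 carries in its globular core.

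Ribosomal RNA-depleted RNA was sequenced from yeast grown to midlog phase in rich YPD medium, with 1 library per genotype. Lower-case names stand for gene deletions. The survey held 5 genotypes of the BY4741 background, namely wild type (BY4741 itself), *sir2*, *fpr3*, *fpr4* and the deletion of both, *fpr3fpr4*, where *FPR3* and *FPR4* encode paralogous nucleolar histone chaperones. A further 2 genotypes, *trf5fpr3* and *trf5fpr3fpr4*, were *MAT***a** progeny of a synthetic genetic array cross, and both lack *TRF5*, a poly(A) polymerase gene of the TRAMP nuclear surveillance complex. According to the methods each culture came from a single colony, so a genotype is also 1 isolate, with a reservation for *trf5fpr3* given below. With no replicates, every test below compares the reads of 1 library with those of another and says nothing of the spread between cultures of a genotype.

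Counted reads per library ran from 627679 in *trf5fpr3fpr4* to 1242534 in *sir2*, with a median of 1092722. A count of 3 reads or fewer was taken as not told from 0. The deleted genes *FPR3*, *FPR4*, *TRF5* and *SIR2* had 0 reads in the libraries that lack them, except *TRF5* with 2 reads in *trf5fpr3fpr4*. The progeny of the cross also differ from the survey strains elsewhere: *CAN1* had 3 and 0 reads and *LYP1* had 0 and 0 in these 2 libraries, against at least 168 and 180 in each survey library. *FPR4*, which the methods place on a *URA3*-marked plasmid in *trf5fpr3*, had 186 reads in that library. *URA3* had 0 reads in all 7, so the marker of the plasmid was not seen in the counts. *LEU2*, which per the methods replaced *FPR3* in a parent of the cross, had 70 and 35 reads in *trf5fpr3* and *trf5fpr3fpr4*. It had 0 in each survey library. The name under which the data of *trf5fpr3* were deposited mentions neither *FPR* gene and refers to the total haploid progeny population. The methods describe such a population as a mixed control. The genotype of *trf5fpr3* here rests on the sample label, the 0 reads of *FPR3* and the reads of *LEU2*. This limits what a comparison against it stands for. The choice to name *CAN1*, *LYP1*, *URA3* and *LEU2* followed a look at their values. The 6 *MAT***a** markers *STE2*, *MFA1*, *MFA2*, *BAR1*, *STE6* and *AGA2* summed to between 1603 and 2054 reads in 6 libraries and to 18 reads in *sir2*, where 3 of them were at 0. The 4 *MAT*α markers, *STE3*, *MF(ALPHA)1*, *MF(ALPHA)2* and *SAG1*, summed to 10 reads in *sir2*, with 3 at 0, and to 16 to 43 elsewhere. The part of this difference in mating-type expression in the values of *sir2* given here was not tested.

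*SIR2* and *HST1* are paralogs, so it was asked first whether their reads could be told apart. Over 1387 aligned bases the coding sequences were 70.9% identical in the R64 genome sequence, and *SIR3* was 61.3% identical over 2357 bases to *ORC1*, its paralog among the origin recognition genes. The 60 aligned bases of *SIR2* and *HST1* that were most alike are shown here because they are where a read is most easily misplaced. Capitals mark the 52 bases that the genes share, and lower case the bases that differ.
*SIR2*, chrIV:377477-377536, minus strand: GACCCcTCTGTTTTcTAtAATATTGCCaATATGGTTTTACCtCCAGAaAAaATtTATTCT
*HST1*, chrXV:201073-201132, minus strand: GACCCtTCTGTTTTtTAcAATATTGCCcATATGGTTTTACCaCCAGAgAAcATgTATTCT
Even here no identical stretch in the alignment was longer than 13 bases, and none of the windows of 30 bases in any of the 9 genes occurred a second time in the nuclear genome on either strand. *SIR2* reads in the *sir2* library came to 0 although *HST1* had 84 there. No RefSeq gene overlapped any of the 9 within its annotated limits. Transcripts that run past those limits, and antisense reads, were not examined.

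Levels are given as RPKM, reads scaled by gene length and by the counted reads of the library, with 95% exact Poisson intervals that cover counting error only. In wild type the sirtuin genes *HST2*, *HST1* and *SIR2* stood at 73.3 (58.6 to 90.5), 57.5 (46.5 to 70.3) and 35.8 RPKM (27.6 to 45.5), and *RAP1* at 67.4 (58.0 to 77.9). *HST3*, *SIR4* and *SIR3* followed at 21.1, 20.6 and 19.9 RPKM, and *HST4* and *SIR1* were lowest, at 8.22 (3.94 to 15.1) and 3.72 RPKM (1.61 to 7.34). Of the 8 neighbours in this order, 3 pairs differed beyond counting error, namely *HST1* above *SIR2* (1.61-fold, 95% exact binomial interval 1.16 to 2.24), *SIR2* above *HST3* (1.69-fold, 1.09 to 2.69) and *SIR3* above *HST4* (2.43-fold, 1.24 to 5.30). *HST2* and *RAP1* could not be ordered in wild type (ratio 1.09, 0.83 to 1.41), nor could *HST3*, *SIR4* and *SIR3*. *SIR2* lay above its complex partners per length of gene, and only 8.18% of all genes were listed below *SIR1*. In these bulk libraries, fewer cells with a transcript and less of it per cell cannot be told apart.

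**Figure D1:**
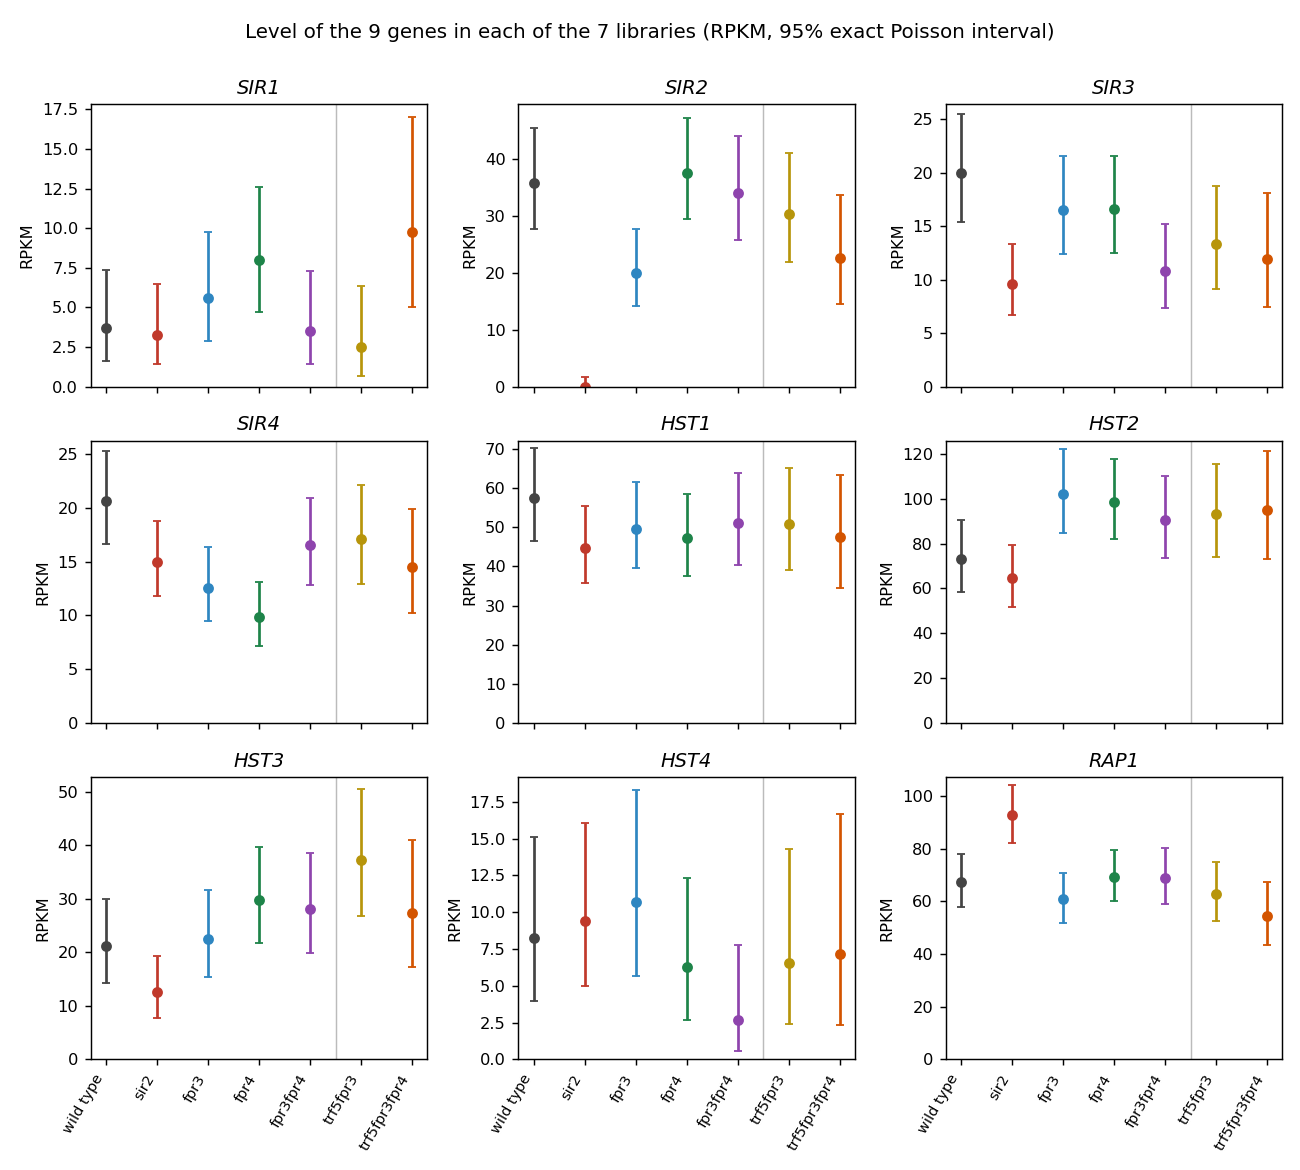
RPKM (vertical axis of each panel, from 0) of each gene in the 7 libraries along the horizontal axis. Points are single libraries, bars are 95% exact Poisson intervals, and the grey line separates the 5 survey libraries from the 2 of the cross. *HST1* stays between 44.7 and 57.5 RPKM, *RAP1* is highest in *sir2* at 92.7, and *SIR2* is at 0 there.

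A gene was called when a chi-square test of its reads against all other reads of 2 libraries passed a false discovery rate of 0.05 over all genes with more than 5 reads in the pair, and when its RPKM, with 1 added, differed by at least 1.3-fold. All 9 genes passed the filter on reads in each of the 5 comparisons. In *sir2* against wild type 3 of the 9 were called, 1 higher and 2 lower with *SIR2* itself included, where the calls took 19.8% of 4766 tested genes (5.2% higher and 14.6% lower). In *fpr3* 2 were called, both lower, against 12.3% of 4771 genes (4.19% higher and 8.07% lower). In *fpr4* 1 was called lower, against 13.1% of 4777 (3.87% higher and 9.27% lower), and in *fpr3fpr4* 1 was called lower, against 14.4% of 4755 (5.07% higher and 9.36% lower). In *trf5fpr3fpr4* set against *trf5fpr3* 1 was called higher, against 28.1% of 4733 (20.7% higher and 7.42% lower). Read against these shares, the counts give no result about the 9 genes as a group. Past 1.3-fold without the test were 5, 4, 4, 3 and 3 of the genes in these comparisons, against 45%, 39.8%, 40.4%, 42.8% and 56.9% of all tested genes. The study reports that reads in *trf5fpr3fpr4* gather toward the start of many genes. Counts here are over whole genes, so a higher count in that library need not mean more full-length transcript. Where reads lie within the genes named here was not examined.

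The median log2 fold change of the 9 genes was -0.36 in *sir2* (-0.27 without *SIR2*), -0.15 in *fpr3*, 0.04 in *fpr4*, -0.07 in *fpr3fpr4* and -0.14 in *trf5fpr3fpr4*. Over all tested genes it was -0.13, -0.10, -0.10, -0.09 and 0.20 in the same order. The split of all calls between higher and lower depended on the scale. With edgeR's TMM factors 396 genes were called higher and 486 lower in *sir2*, against 248 and 697 without them. The same factors gave 290 and 229 in *fpr3* (200 and 385 without), 291 and 260 in *fpr4* (185 and 443), 354 and 304 in *fpr3fpr4* (241 and 445), and 612 and 656 in *trf5fpr3fpr4* (978 and 351). For several calls among the 9 genes the fold change is therefore also given relative to the median of all tested genes. The first 4 comparisons share the wild-type library.

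**Figure D2:**
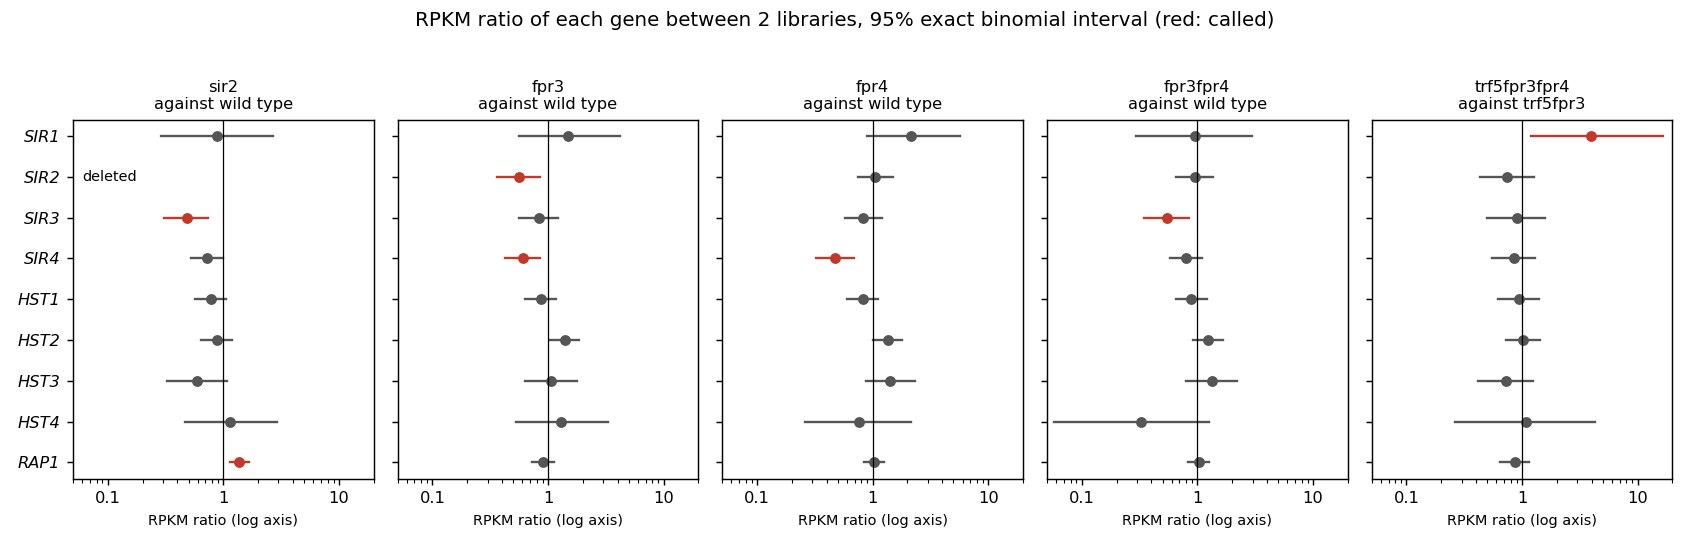
Ratio of RPKM between 2 libraries (horizontal log axis) for each of the 9 genes, in 5 panels, 1 per comparison. Points are ratios, lines are 95% exact binomial intervals, and red marks called genes: besides *SIR2* in *sir2*, marked as deleted, these are *SIR3* (0.48) and *RAP1* (1.37) in *sir2*, *SIR2* and *SIR4* in *fpr3*, *SIR4* in *fpr4*, *SIR3* in *fpr3fpr4* and *SIR1* in the last panel.

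*SIR2* (YDL042C, chromosome IV, 376757 to 378445, sacCer3), the catalytic subunit, had 66 reads in wild type, 37 in *fpr3*, 73 in *fpr4*, 58 in *fpr3fpr4*, 42 in *trf5fpr3* and 24 in *trf5fpr3fpr4*. In RPKM this was 35.8, 20.05, 37.6, 34.0, 30.4 and 22.6. The *fpr3* library was lowest and its level lay at 0.56 of wild type (95% exact binomial interval 0.36 to 0.85, adjusted p = 0.0311, chi-square test). In *fpr3fpr4*, which also lacks *FPR3*, the level stood at 0.95 of wild type (0.66 to 1.38). These intervals overlap, and whether the ratios differ was not tested. Relative to the median gene the log2 fold change in *fpr3* was -0.70, and when the libraries were rescaled to that median the gene was no longer called (adjusted p = 0.0725, chi-square test). In *sir2* the 0 reads were at least 25-fold below wild type, with the bound taken at 3 reads in the deletion library. The genes on either side of the deleted locus were not called in *sir2*: *PRP11*, a splicing factor gene 276 bp away, had 25 reads against 19 (ratio 1.16, 0.61 to 2.22), and *NAT1*, encoding a subunit of an N-terminal acetyltransferase 428 bp away, had 433 against 358 (ratio 1.06, 0.92 to 1.23).

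*SIR3* (YLR442C, chromosome XII, 1019315 to 1022251) encodes the subunit that binds nucleosomes. It had 64 reads in wild type, 35 in *sir2*, 53 in *fpr3*, 56 in *fpr4*, 32 in *fpr3fpr4*, 32 in *trf5fpr3* and 22 in *trf5fpr3fpr4*. Wild type was the highest of the 7 libraries at 19.9 RPKM and *sir2* the lowest at 9.59. The transcript fell in *sir2* to 0.48 of wild type (95% exact binomial interval 0.31 to 0.74, adjusted p = 0.00287, chi-square test), a log2 fold change of -0.98, or -0.86 relative to the median gene. It was also called lower in *fpr3fpr4*, at 0.54 of wild type (0.34 to 0.84, adjusted p = 0.0271, chi-square test). Only the first of these calls was kept on the rescaled libraries, where *fpr3fpr4* gave an adjusted p of 0.0534 in the chi-square test. In the single mutants the gene stood at 0.83 of wild type in each, with intervals of 0.56 to 1.21 in *fpr3* and 0.57 to 1.21 in *fpr4*. Whether these ratios differ from that in *fpr3fpr4* was not tested.

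*SIR4* (YDR227W, chromosome IV, 917571 to 921647), the scaffold of the complex, had 92 reads in wild type, 76 in *sir2*, 56 in *fpr3*, 46 in *fpr4*, 68 in *fpr3fpr4*, 57 in *trf5fpr3* and 37 in *trf5fpr3fpr4*. Wild type was again highest, at 20.6 RPKM, and *fpr4* lowest, at 9.81. The gene was called lower in *fpr4*, at 0.48 of wild type (95% exact binomial interval 0.33 to 0.68, adjusted p = 0.000459, chi-square test), and in *fpr3*, at 0.61 (0.43 to 0.86, adjusted p = 0.0246, chi-square test). Relative to the median gene the log2 fold changes were -0.90 and -0.57, and the *fpr3* call was lost on the rescaled libraries (adjusted p = 0.0683, chi-square test). In *fpr3fpr4* the ratio was 0.80 (0.58 to 1.11), which is not below wild type beyond counting error, and whether it differs from the ratio in *fpr4* was not tested. In *sir2* the ratio of 0.73 (0.53 to 0.996) did not pass after adjustment (adjusted p = 0.119, chi-square test).

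The levels of *SIR4* and *SIR3* changed places between libraries. The ratio of *SIR4* to *SIR3*, in RPKM, was 1.04 in wild type (95% exact binomial interval 0.74 to 1.45), 1.56 in *sir2* (1.04 to 2.41), 0.76 in *fpr3* (0.51 to 1.13), 0.59 in *fpr4* (0.39 to 0.89) and 1.53 in *fpr3fpr4* (0.99 to 2.41). *SIR4* was thus above *SIR3* beyond counting error in *sir2*, below it in *fpr4*, and not told from it in the other 5 libraries. *SIR2* exceeded *SIR3* in 5 of the 6 libraries that carry it, with ratios between 1.21 and 3.15, and its interval spanned 1 in the *fpr3* library. These ratios are between genes within a library and are unaffected by the scaling of libraries.

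*SIR1* (YKR101W, chromosome XI, 640540 to 642504), which acts at the mating-type silencers, was the member nearest a chromosome end, at 24.3 kb. Its 8 reads in wild type, 8 in *sir2*, 12 in *fpr3*, 18 in *fpr4*, 7 in *fpr3fpr4*, 4 in *trf5fpr3* and 12 in *trf5fpr3fpr4* were few. Between the last 2 libraries the RPKM over the whole gene rose from 2.49 to 9.73, 3.92-fold (95% exact binomial interval 1.19 to 16.7, adjusted p = 0.0373, chi-square test). An exact binomial test of the same reads gave an adjusted p of 0.0634, and the rescaled libraries gave 0.0736 in the chi-square test. In *fpr4* the ratio to wild type was 2.14, with an interval of 0.88 to 5.68, and the gene was not called. At 4 to 18 reads in a library, a difference inside these limits was not detectable.

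*HST1* (YOL068C, chromosome XV, 200368 to 201879), the paralog of *SIR2*, varied least. It had 95 reads in wild type, 84 in *sir2*, 82 in *fpr3*, 82 in *fpr4*, 78 in *fpr3fpr4*, 63 in *trf5fpr3* and 45 in *trf5fpr3fpr4*, or 57.5, 44.7, 49.6, 47.2, 51.1, 50.9 and 47.4 RPKM. The lowest and the highest library differed by 1.29-fold. Its chi-square statistic per degree of freedom over the 7 libraries was 0.56, where 1 stands for counting error alone and where the median of 4393 genes with a mean of at least 10 reads was 3.68. Only 1.46% of those genes had a lower value. Without *SIR2*, *HST1* stood at 0.78 of wild type (95% exact binomial interval 0.57 to 1.05, adjusted p = 0.221, chi-square test), so no rise of the paralog was measured. On the scale of counted reads a rise above 1.05-fold lies outside the interval, which covers counting error only. Relative to the median gene the log2 fold change was -0.23. The ratio of *HST1* to *SIR2* was between 1.25, in *fpr4*, and 2.48, in *fpr3*, over the 6 libraries that carry *SIR2*.

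*HST2* (YPL015C, chromosome XVI, 525810 to 526883), the gene of the cytoplasmic sirtuin, had the highest RPKM of the sirtuin genes in every library. It exceeded *HST1* beyond counting error in 6 of the 7, and in wild type the ratio was 1.27 with an interval of 0.94 to 1.72. It had 86 reads in wild type and 86 in *sir2*, at 73.3 and 64.4 RPKM. The other libraries held 120 in *fpr3*, 122 in *fpr4*, 98 in *fpr3fpr4*, 82 in *trf5fpr3* and 64 in *trf5fpr3fpr4*, at 102.3, 98.8, 90.4, 93.2 and 94.9 RPKM. These 5 values lay above those of wild type and *sir2*, and the share of all genes with this split was not counted. The 95% exact Poisson intervals of wild type (58.6 to 90.5 RPKM) and *fpr3fpr4* (73.4 to 110.2) overlapped. Of the 5 libraries, 2 come from the cross, which had a parent of another strain background. The ratio to wild type was 1.40 in *fpr3* (95% exact binomial interval 1.05 to 1.86, adjusted p = 0.0840, chi-square test), 1.35 in *fpr4* (1.01 to 1.80) and 1.23 in *fpr3fpr4* (0.91 to 1.67), and none was called. On the rescaled libraries *HST2* passed higher in *fpr3*, at 0.58 on the log2 scale (adjusted p = 0.0301, chi-square test). These 3 ratios share the wild-type library.

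*HST3* (YOR025W, chromosome XV, 378219 to 379562) and *HST4* (YDR191W, chromosome IV, 842337 to 843449) were called in none of the 5 comparisons. *HST3* had 31 reads in wild type, 21 in *sir2*, 33 in *fpr3*, 46 in *fpr4*, 38 in *fpr3fpr4*, 41 in *trf5fpr3* and 23 in *trf5fpr3fpr4*, and its RPKM ran from 12.6 in *sir2* to 37.2 in *trf5fpr3*. In *sir2* its ratio to wild type was 0.60 (95% exact binomial interval 0.33 to 1.07, adjusted p = 0.173, chi-square test). *HST4* had between 3 and 13 reads, with the 3 reads in *fpr3fpr4* at 0.32 of wild type and an interval of 0.057 to 1.26. *HST3* was above *HST4* beyond counting error in 6 of the 7 libraries, the exception being *sir2*, where the ratio was 1.34.

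Summed over the 5 sirtuin genes, the level was 195.8 RPKM in wild type, 131 in *sir2* and 199.4 to 219.5 elsewhere. *SIR2* held 18.3% of this sum in wild type and 9.78% in *fpr3*. *HST2* held 37.4% in wild type and between 42.7% and 49.9% in the other libraries that carry *SIR2*. In *sir2* it held 49.1% of a sum that lacks *SIR2*, although its level there was 64.4 RPKM against 73.3 in wild type. None of the other 4 sirtuin genes was higher in *sir2* than in wild type beyond counting error.

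**Figure D3:**
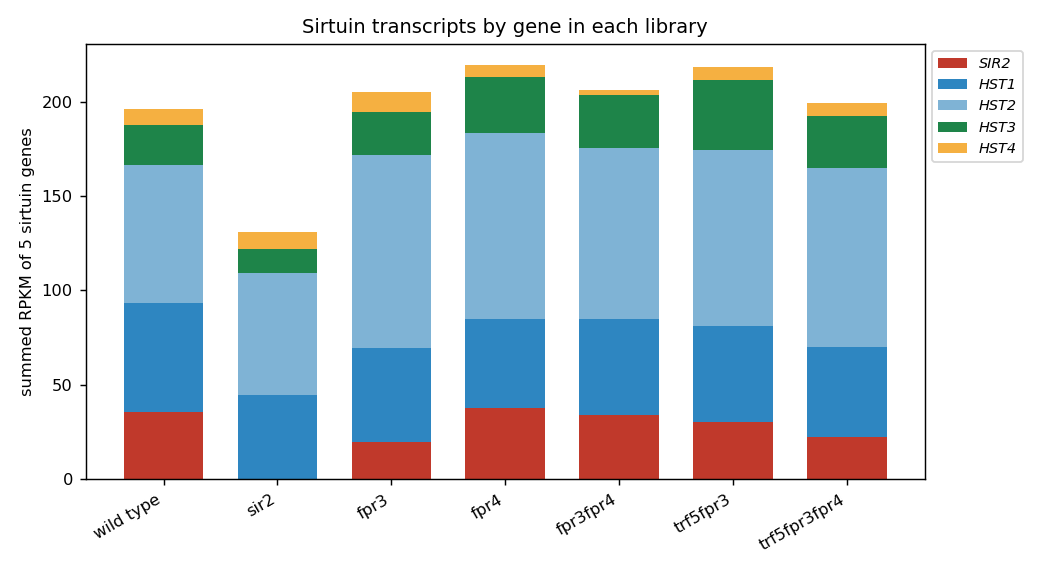
Summed RPKM of *SIR2*, *HST1*, *HST2*, *HST3* and *HST4* (vertical axis, from 0) in each of the 7 libraries, with each gene as a coloured segment. The *sir2* bar reaches 131 RPKM against 195.8 in wild type, and *HST2* is the tallest segment in all 7.

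*RAP1* (YNL216W, chromosome XIV, 241689 to 244172), the DNA-binding factor, had the most reads of the 9 genes. It had 183 reads in wild type, 286 in *sir2*, 165 in *fpr3*, 198 in *fpr4*, 173 in *fpr3fpr4*, 128 in *trf5fpr3* and 85 in *trf5fpr3fpr4*. In RPKM the *sir2* library stood apart at 92.7 (95% exact Poisson interval 82.2 to 104.05), above the intervals of the other 6, whose levels ran from 54.5 to 69.3. *RAP1* rose in *sir2* to 1.37 of wild type (95% exact binomial interval 1.14 to 1.66, adjusted p = 0.00509, chi-square test), a log2 fold change of 0.45, or 0.58 relative to the median gene. It passed 1.3-fold but not the stricter threshold of 1.5-fold. In *fpr3*, *fpr4* and *fpr3fpr4* the ratios were 0.90 (0.73 to 1.12), 1.03 (0.84 to 1.26) and 1.02 (0.83 to 1.27), so changes beyond these limits lie outside counting error.

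The upstream sequence of *RAP1* is shown because Rap1 is itself a DNA-binding factor and its transcript was called in *sir2*. The core ACACCC of the Rap1 recognition sequence, searched on both strands, was found in the 300 bases before the start codon of *RAP1* and of none of the other 8 genes, while 5.55% of 5041 such windows hold it. In the following stretch, from 180 to 95 bases before the start codon, capitals mark that core.
*RAP1*, chrXIV:241509-241594, plus strand: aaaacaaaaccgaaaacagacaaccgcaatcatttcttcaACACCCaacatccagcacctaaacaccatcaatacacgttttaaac
The match is a description of these letters and not of binding.

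Libraries at the extremes were counted over the 8 genes other than *SIR2*. *SIR3*, *HST1*, *HST2* and *HST3* were lowest in *sir2*, the library that is lowest for 17.3% of 4393 genes. *SIR3*, *SIR4* and *HST1* were highest in wild type, the library that is highest for 18.8% of them. The library that is highest for the largest share, 36.6%, is *trf5fpr3fpr4*, and of the 8 genes only *SIR1* was highest there. It is lowest for 17.2% and was lowest for *RAP1*. The 4393 genes have a mean of at least 10 reads, which *SIR1* and *HST4* do not reach (9.86 and 8.29). For *HST1* both extremes lie within counting error of each other (0.78, interval 0.57 to 1.05).

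Genes whose levels ran most like those of the 2 members with the most reads were sought over the 7 libraries. Likeness was the root mean square difference of log2(RPKM + 1), each gene centred on its own mean, among 1701 genes with at least 50 reads in every library. For *RAP1* the nearest were *OLA1*, an ATPase gene (0.085), *ARB1*, an ATPase of ribosome assembly (0.087), and *NMA1*, an enzyme of NAD synthesis (0.098), where the median gene stood at 0.32. *OLA1* had 1017 reads in wild type and 1502 in *sir2*, and *NMA1* 112 and 178. For *HST2* the nearest were *HEM15*, the ferrochelatase gene (0.085), *POR1*, the mitochondrial porin gene (0.088), and *CSC1*, a cation channel gene (0.10), where the median was 0.34. *HEM15* had 163 reads in wild type, 146 in *sir2* and 211 in *fpr3*.

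Related genes were read from 6 lists. Of 12 genes that bind silencers, origins or telomeres, 0 were called in *sir2*, where 19.8% of all genes were. The median log2 fold change there was -0.08 against -0.13 over all genes. In *fpr3* and *fpr3fpr4* 1 was called lower in each, against 8.07% and 9.36% of all genes. In *fpr4* and *trf5fpr3fpr4* 1 was called higher in each, against 3.87% and 20.7%. *ABF1*, which encodes another silencer-binding factor, was lower in *fpr3*, with 81 reads against 138 (0.59 of wild type, 95% exact binomial interval 0.44 to 0.78, adjusted p = 0.00207, chi-square test). *ORC5* of the origin recognition complex was higher in *fpr4*, with 76 reads against 44 (1.64-fold, adjusted p = 0.0479, chi-square test), a call lost with the exact binomial test (adjusted p = 0.0582). It was also higher in *trf5fpr3fpr4* against *trf5fpr3*, with 74 against 46 (2.10-fold, 1.43 to 3.10, adjusted p = 0.000417, chi-square test). *ORC2* was lower in *fpr3fpr4*, with 40 reads against 73, a call lost on the rescaled libraries. *ORC1*, the paralog of *SIR3*, had 56 reads in wild type and 60 in *sir2* (0.94 of wild type, 0.64 to 1.38), where *SIR3* was called lower.

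The list of 8 histone modifiers of silencing also holds histone chaperone genes, among them *VPS75*, and the counts include these. Of the 8 genes, 2 were called lower in *sir2*, where 14.6% of all genes were, and 4 in *fpr3*, where 8.07% were. In *fpr4*, *fpr3fpr4* and *trf5fpr3fpr4* 1 was called lower in each, against 9.27%, 9.36% and 7.42% of all genes, with 7 of the 8 tested in the last. None was called higher. The list's median log2 fold change was -0.68 in *sir2* (-0.13 over all genes), -0.94 in *fpr3* (-0.10), -0.38 in *fpr4* (-0.10), -0.24 in *fpr3fpr4* (-0.09) and 0.04 in *trf5fpr3fpr4* (0.20). *DOT1*, a histone methyltransferase gene named after its values were seen, had the opposite sign, with 36 reads in *sir2* and 24 in *fpr3* against 17 (ratios 1.86 and 1.41, not called). *VPS75*, a histone chaperone gene that acts with *RTT109*, had 35 reads in wild type, 17 in *sir2*, 15 in *fpr3*, 28 in *fpr4*, 9 in *fpr3fpr4*, 19 in *trf5fpr3* and 2 in *trf5fpr3fpr4*. It was called lower in all of these comparisons except *fpr4* (0.76 of wild type, 95% exact binomial interval 0.45 to 1.29). *SAS4*, a subunit of the acetyltransferase whose mark Sir2 removes, was called lower in *sir2*, *fpr3* and *fpr4*, with 23, 17 and 20 reads against 39. *RTT109*, the acetyltransferase gene of the mark that Hst3 and Hst4 remove, was lower in *fpr3*, with 12 reads against 30 (adjusted p = 0.0373, chi-square test). The fourth gene called there, *SET1*, named after its values were seen, encodes a histone methyltransferase and had 46 reads against 88. With the exact binomial test *SAS4* was called only in *fpr3* and *RTT109* was not called. On the rescaled libraries *SAS4* was called in none of these 3, and *RTT109* and *VPS75* were not called in *fpr3*, which left *SET1* as its 1 call.

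Among the 7 genes of deacetylases that do not use NAD, *HOS3* differed most clearly. It had 89 reads in wild type (38.9 RPKM), 74 in *sir2* and 83 in *fpr4*. In *fpr3* it had 31 (13.5 RPKM, adjusted p = 4.78e-06, chi-square test) and in *fpr3fpr4* 32 (15.1 RPKM, adjusted p = 4.75e-05, chi-square test). The 2 libraries of the cross, which also lack *FPR3*, held 28.0 and 19.8 RPKM, and the cross had a parent of another strain background. *HOS1* was called lower in *fpr3*, with 1 read against 15 (ratio 0.067, 95% exact binomial interval 0.0016 to 0.43), a count that is not told from 0. In *fpr3fpr4*, which also lacks *FPR3*, *HOS1* had 18 reads (interval of the ratio to wild type 0.62 to 2.77). *HDA2* was called lower in *fpr3fpr4*, with 31 reads against 63. Called lower were 2 of the 7 in *fpr3* and 2 in *fpr3fpr4*, where 8.07% and 9.36% of all genes were. The other comparisons held 0 calls in this list, against 19.8% of all genes in *sir2*, 13.1% in *fpr4* and 28.1% in *trf5fpr3fpr4*.

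Sirtuins consume NAD, and 15 genes of its synthesis and salvage were read. The 4 calls in *sir2* are to be read beside the 19.8% of all genes called there. In *sir2* 1 was called higher, *NMA1*, with 178 reads against 112 (adjusted p = 0.0260, chi-square test), and 3 lower, namely *TNA1*, the transporter of nicotinic acid (294 against 368), *PNC1*, the nicotinamidase gene (185 against 224), and *NRK1*, a nicotinamide riboside kinase gene (15 against 33). Scaled to the libraries the ratios were 1.40, 0.70, 0.73 and 0.40, and only *NRK1* passed the 1.5-fold threshold. The list median there was -0.09 against -0.13 over all genes. *NRK1* was also the 1 gene called in *fpr3*, lower with 10 reads, where 8.07% of all genes were called lower. In *fpr4* and *fpr3fpr4* 0 were called, against 13.1% and 14.4% of all genes. In *trf5fpr3fpr4* against *trf5fpr3* 4 of the 14 tested were called higher, where 20.7% of all genes were, and 1 lower, where 7.42% were. The higher genes were *BNA1* (37 reads against 18, ratio 2.68), *NRT1* (39 against 23, 2.21) and, named after their values were seen, *BNA6* (71 against 53, 1.75) and *PNC1* (123 against 112, 1.43), and the lower one was *BNA5* (20 against 54, 0.48). The *PNC1* calls in both comparisons and that of *BNA6* were lost on the rescaled libraries. The median of the list in this comparison was -0.01 against 0.20 over all genes.

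Partners of Sir2 and Hst1 in other complexes were *NET1*, whose product tethers both Sir2 and the phosphatase Cdc14 in the nucleolus, *CDC14* itself, and *SUM1* and *RFM1*, which act with Hst1. *SUM1* was called lower in *fpr3*, with 97 reads against 139 (adjusted p = 0.0413, chi-square test), and *CDC14* in *fpr3fpr4*, with 86 against 141 (adjusted p = 0.0178, chi-square test), and neither call was kept on the rescaled libraries. In *trf5fpr3fpr4* *NET1* was lower, with 153 reads against 266 in *trf5fpr3* (ratio 0.75, 0.61 to 0.92), a call lost at the 1.5-fold threshold. *RFM1* had 0 against 11 there, at least 2.81-fold lower with the bound at 3 reads. Called lower were thus 1, 1 and 2 of the 4 genes in *fpr3*, *fpr3fpr4* and *trf5fpr3fpr4*, against 8.07%, 9.36% and 7.42% of all genes. In *sir2* and *fpr4* 0 were called, against 19.8% and 13.1%. Of 10 middle sporulation genes that Sum1 and Hst1 repress, none had more than 8 reads in any library and 3 had 0 in all 7. Between 1 and 3 of them could be tested in a comparison and 0 were called, so their repression could be neither seen to hold nor to be lost at this depth.

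**Figure D4:**
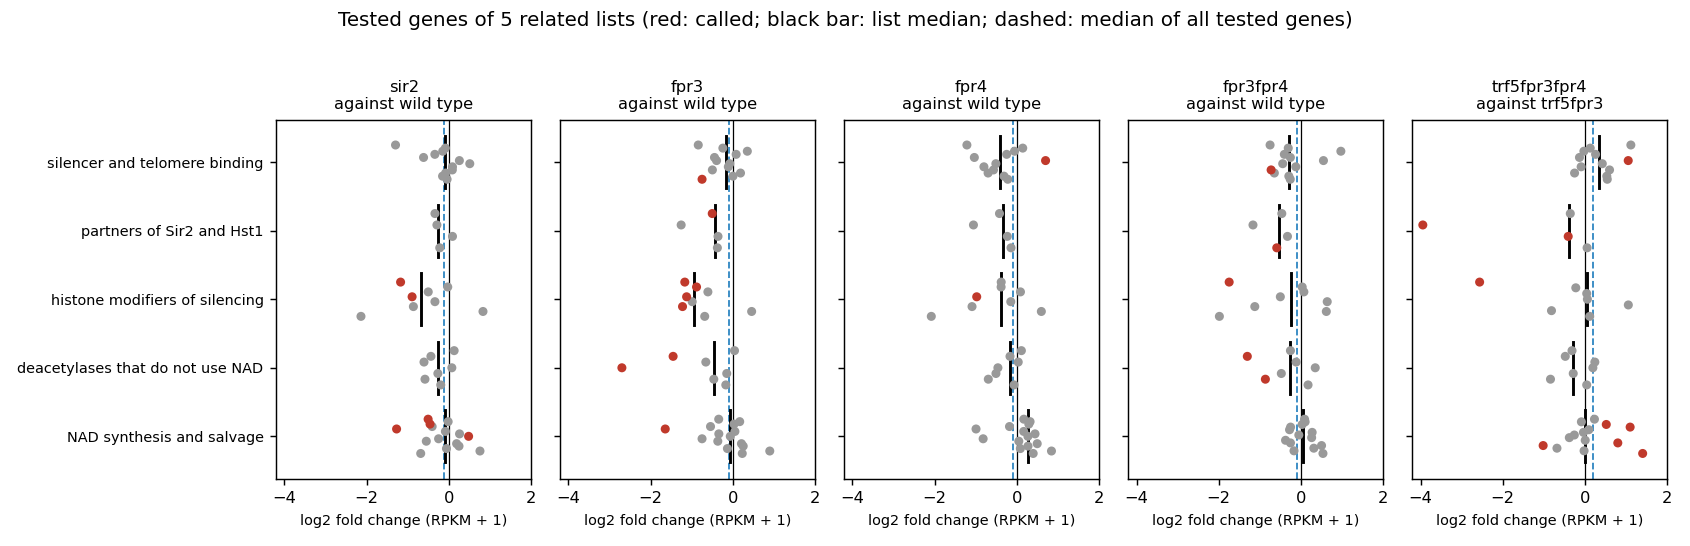
Log2 fold change of RPKM + 1 (horizontal axis) of each tested gene of 5 related lists, in 5 panels, 1 per comparison. Each point is a gene, red marks called genes, black bars are list medians and the dashed line is the median of all tested genes, which lies at -0.13 in *sir2* and at 0.20 in the last panel. The median of the histone modifier list, which also holds histone chaperone genes, lies at -0.94 in *fpr3* and at 0.04 in the last panel.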

How the data were processed

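Per the methods, the authors aligned paired reads to sacCer3 with BWA, removed reads below a mapping quality of 5, duplicated fragments and improper pairs, and assigned the reads of the sense strand to genes by their annotated limits. The deposited read count is not normalized. The other deposited value, headed TPM, is an RPKM: recomputing it from reads, length and library total changed it by 0.098% at most, leaving out genes of 20 reads or fewer. Collapsing duplicates lowers the counts of abundant transcripts.

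Genotypes were taken from the labels. Reads of 2 libraries were compared by chi-square (1 degree of freedom), with Benjamini-Hochberg adjustment over all genes with more than 5 reads in the pair, and with a fold threshold of 1.3 on RPKM + 1. The methods name 1.5, run as an alternative, and the results section of the study the 1.3 used here. Intervals are 95% exact Poisson or binomial intervals and cover counting error only. Calls were run on simulated pairs of libraries that held counting error only. Such pairs do not show how calls behave under the spread between these libraries (median statistic per degree of freedom 3.68 over the 7). Python 3.11.15, scipy 1.17.1, statsmodels 0.14.6, Biopython 1.88 and edgeR 4.0.16 (TMM factors only) were used. In all, 9 alternatives were run. Sequences are from RefSeq R64, in which all 9 genes have the coordinates of the files. *SIR2* and *HST1* were aligned with free end gaps.

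The genes and the lists were chosen with earlier results of these data known. Named genes are the 9 members, *ORC1*, the deleted genes, the neighbours of *SIR2*, up to 3 called genes per list and comparison, and the 3 genes nearest in pattern to the 2 members with the most reads. Others are marked as named after their values were seen.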

Additional observations from a re-analysis of the deposited data

How the results depend on the processing

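Over the 9 genes, 5 comparisons and 9 alternatives, 374 of 405 fold changes kept their direction and stayed called or not called. Several alternatives change only the filter on reads, the test or the fold threshold. These leave the fold change as it was and could not turn its direction. *SIR3* in *sir2* and *SIR4* in *fpr4* were called under all 9, and *RAP1* in *sir2* under all but the 1.5-fold threshold. On libraries rescaled to a median log2 fold change of 0, and also with TMM factors, the number of genes called was 1 in *fpr3* (*HST2* in place of *SIR2* and *SIR4*), 0 in *fpr3fpr4* and 0 in *trf5fpr3fpr4*. With the exact binomial test it was 0 in *trf5fpr3fpr4*. With the fold threshold alone it was 5 in *sir2*, 4 in *fpr3*, 4 in *fpr4*, 3 in *fpr3fpr4* and 3 in *trf5fpr3fpr4*.

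Fold changes near 0 turned in sign on rescaling and with TMM factors: in *fpr3fpr4* *SIR1* (log2 0.027 and 0.0068) and *SIR2* (0.018 and 0.014), and in *trf5fpr3fpr4* *HST2* (-0.18 in both) and *HST4* (-0.098 and -0.078). Of the 31 calls in the related lists, 20 were kept on rescaling, 21 with TMM factors, 25 at 1.5-fold, 27 with the exact binomial test, 29 without mitochondrial genes and all under the other 4, a count added after seeing the data. None of the reversed fold changes was called under any setting that uses the test. No paired analysis was possible because each genotype has 1 library. The counts of *SIR1* and *HST4*, at most 18 and 13 reads in a library, limit what can be said of them.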
